A study of Mus musculus with 7 samples.

Results

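The genes described here are 49 genes of the DNA damage response and of the p53 pathway, chosen by symbol. They were looked up in 2 tables of m6A peaks, one from mouse muscle and one from the myoblast line C2C12. In m6A MeRIP-Seq, mRNA is cut into fragments, an antibody against N6-methyladenosine pulls down the methylated ones, and both this immunoprecipitate (IP) and the starting material (input) are sequenced. A peak is a stretch of transcript with more reads in the IP than in the input. The muscle libraries came from C57BL/6 mice at day 2 after cardiotoxin (CTX) injury of the tibialis anterior. The METTL3 cKO mice carry Pax7CreERT2 and METTL3 flox/flox, so that tamoxifen removes METTL3, the m6A methyltransferase, in Pax7+ muscle stem cells. The knockout is not directed at the other cell types of the muscle. The CTL mice carry Pax7CreERT2 with METTL3 wt/wt, and tamoxifen and CTX were given in both genotypes. Each genotype has 1 IP and 1 input library. Age and the number of animals behind a library are not given in the sources used here. C2C12 has 2 IP libraries and 1 input library. The labels name the genotype of both C2C12 IP libraries as a knockout and that of the input as normal, no knockdown is described for this experiment, and whether the cells were dividing or differentiated is not given.

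The response to DNA damage begins with the kinases ATM and ATR, which are activated at broken or stalled DNA and, through CHK1 and CHK2, stop the cell cycle. They also stabilise p53, a transcription factor that is otherwise destroyed with the help of MDM2, and p53 in turn switches on genes of arrest, repair and cell death. In injured muscle, satellite cells leave quiescence and divide within days, so the same muscle holds dividing stem cells, dying fibres and immune cells.

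Each table holds 1 set of rows for all its libraries. The muscle table lists 5412 peaks in 3975 genes, each with a fold enrichment, the authors' ratio of IP over input in the peak, which runs from 1.06 to 3860 with a median of 12.9. Every listed muscle peak also passed the authors' differential test between genotypes, so a gene without a row may still be methylated. The C2C12 list holds 5433 peaks in 3969 genes with positions only. No value is given per library, so there is no replicate error and no test between cKO and CTL, and read depth is unknown. The muscle positions are on mm10 (GRCm38), and 95.6% of the peaks whose gene is in RefSeq lie inside the span of that gene. Of the C2C12 peaks only 9.28% do, although the processing notes name mm10. The build of that list is not settled here, and places in C2C12 are given as distance from the transcription start site (TSS). Of the markers looked up for the tissue, 4 of 5 satellite cell and myoblast genes were listed in muscle (Pax7 at a fold enrichment of 39, Myod1 at 13.5, Myog at 6.82 and Des at 2.12, not Myf5), 2 of 5 leukocyte genes (Ptprc at 3.28 and Itgam at 2.81, not Cd68, Adgre1 or Csf1r), 1 of 2 endothelial genes (Cdh5 at 155, not Pecam1) and 2 of 2 fibroblast genes (Pdgfra at 49.7 and Col1a1 at 3.52). In C2C12 no leukocyte or endothelial gene of these was listed. A listed peak shows only that the transcript was there. Mettl3 was listed in neither table, and without expression values the loss of METTL3 was not checked here.

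Of the 49 genes, 28 (57.1%) had at least 1 listed peak in muscle, where 16.9% of the 21900 protein-coding genes of RefSeq did. In C2C12 the number was 23 (46.9%), against 17.6% of protein-coding genes. Both tables held 18 of them (36.7%), against 7.31%. A further 10 were listed in muscle alone, against 9.61% of protein-coding genes, and 5 in C2C12 alone, against 10.3%, a share near that of the background. The other 16 were in neither, as were 72.8% of protein-coding genes. The genes were chosen with earlier results of these data known, so these shares describe the list and are no test of it. The 49 genes are also long, with a median span of 44483 bp against 17146 bp for all protein-coding genes and 28950 bp for those in the muscle table. The part of gene length and of expression in the listing was not tested. Among the 49 genes themselves, those listed in muscle had a median span of 41030 bp and those not listed one of 45262 bp. All these spans include introns and do not give the length of the transcripts. Muscle is a mixture of cell types, and fewer cells of a type cannot be told apart from less RNA per cell.

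**Figure D1:**
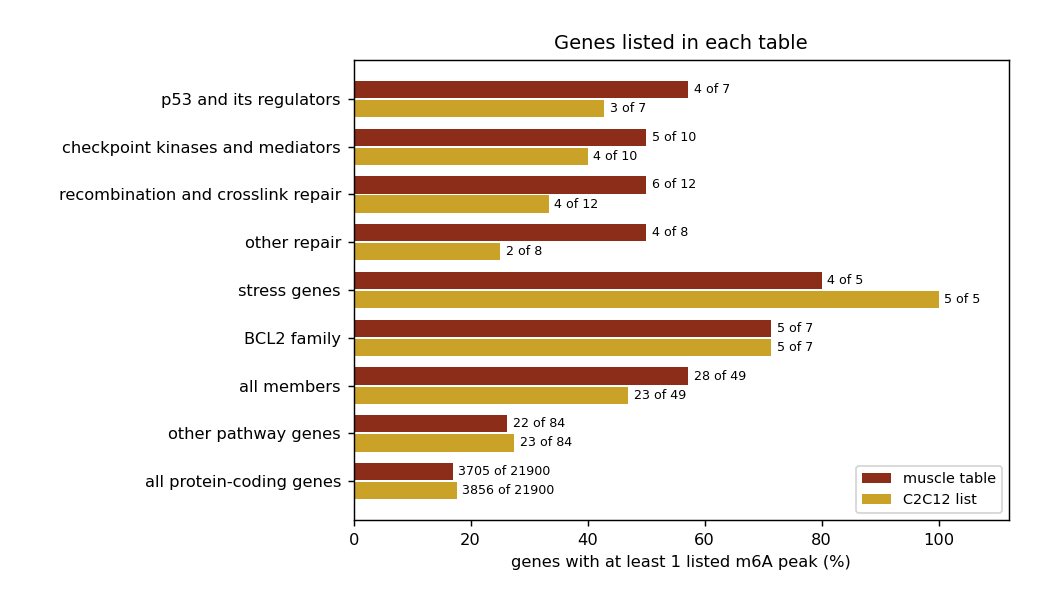
Share of genes with at least 1 listed m6A peak (%), by functional group, in the muscle table and the C2C12 list, with the number of genes beside each bar (all members are the 49 genes). The stress genes (4 of 5 and 5 of 5) and the BCL2 family (5 of 7 in each) had the highest shares among the groups, and every group lay above the 16.9% and 17.6% of all protein-coding genes.

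Taken by the strongest peak of each gene, the fold enrichment of the 28 listed genes had a median of 32.8 and quartiles of 8.59 and 100.4. Over all 3975 listed genes the median was 19.3, with quartiles of 6.88 and 75.95. Of the 28, 18 (64.3%, 95% Wilson interval 45.8 to 79.3, for counting error only) reached that median of 19.3. By construction 50.1% of all genes do, a share inside that interval. The highest values were those of Msh6 (690) and Gadd45g (596), which took rank 67 and rank 86 of all genes. The lowest were those of Bak1 (2.28), Brca2 (3.38) and Gadd45a (3.5). When all 44 peaks of the 28 genes were counted one by one, the median was 13.5, next to 12.9 for all peaks. The genes thus stood higher by their strongest peak than by all their peaks. More than 1 peak was listed in 11 of 28 (39.3%, interval 23.6 to 57.6). Of all listed genes 25.1% had more than 1, again inside the interval.

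**Figure D2:**
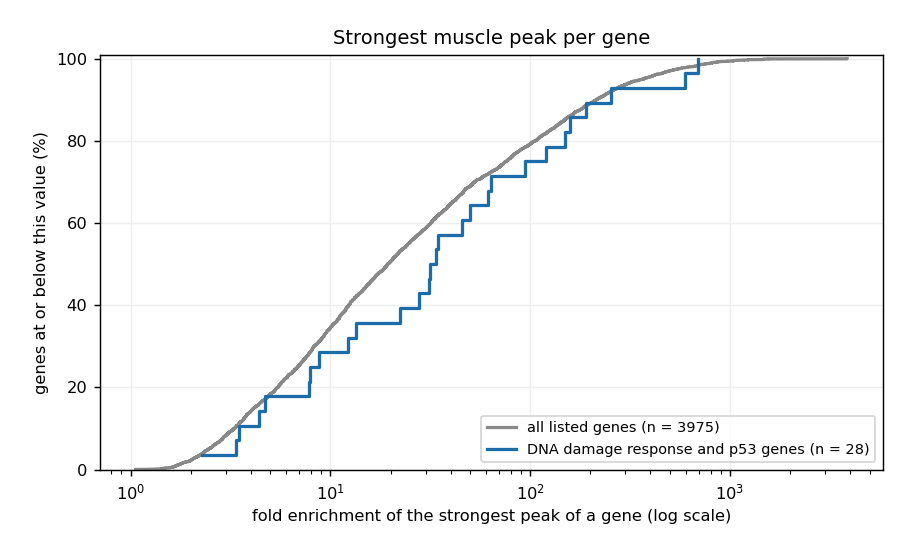
Cumulative share of genes (%) against the fold enrichment of the strongest muscle peak (log axis), for the 28 listed DNA damage response and p53 genes and for all 3975 listed genes. The curve of the 28 genes lies to the right over most of the range, with a median of 32.8 against 19.3, and the curves meet at both ends.

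p53 itself, encoded by Trp53, had a single weak peak in muscle. It lies on chromosome 11 from 69587499 to 69587679, in a part annotated as exon without further class. Its fold enrichment was 4.38, rank 3342 among genes, and it held 1 GGAC site. GGAC is the core of the sequence in which METTL3 methylates the adenosine. Mdm2, the ubiquitin ligase that marks p53 for destruction, had the strongest peak of the group. This CDS peak, enriched 50-fold, runs over 2 exon blocks on chromosome 10 between 117690041 and 117691147. It is on the minus strand, and the positions of the 4 GGAC sites listed in it are uncertain. A second Mdm2 peak in the 3′UTR had a fold enrichment of 2.88 and no GGAC site. Mdm4, a relative of MDM2 that holds p53 inactive, had 2 peaks in its 3′UTR, at 7.8 and 5.52. Trp53inp2, a nuclear protein that takes part in autophagy in spite of its name, had 2 peaks in the 3′UTR as well, at 8.82 and 2.08. Mdm2 was therefore the only one of the 4 listed genes of this group above the median of all genes, which 50.1% of all listed genes reach. The 4 genes listed in muscle are 57.1% of the 7 in the group, against 16.9% of protein-coding genes. Ppm1d, the phosphatase that reverses ATM signalling and p53 activation, was listed in C2C12 alone, with 1 peak of 317 bp in a coding exon. Trp53bp2, whose product binds p53 and promotes cell death, and Trp53inp1 were in neither table.

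**Figure D3:**
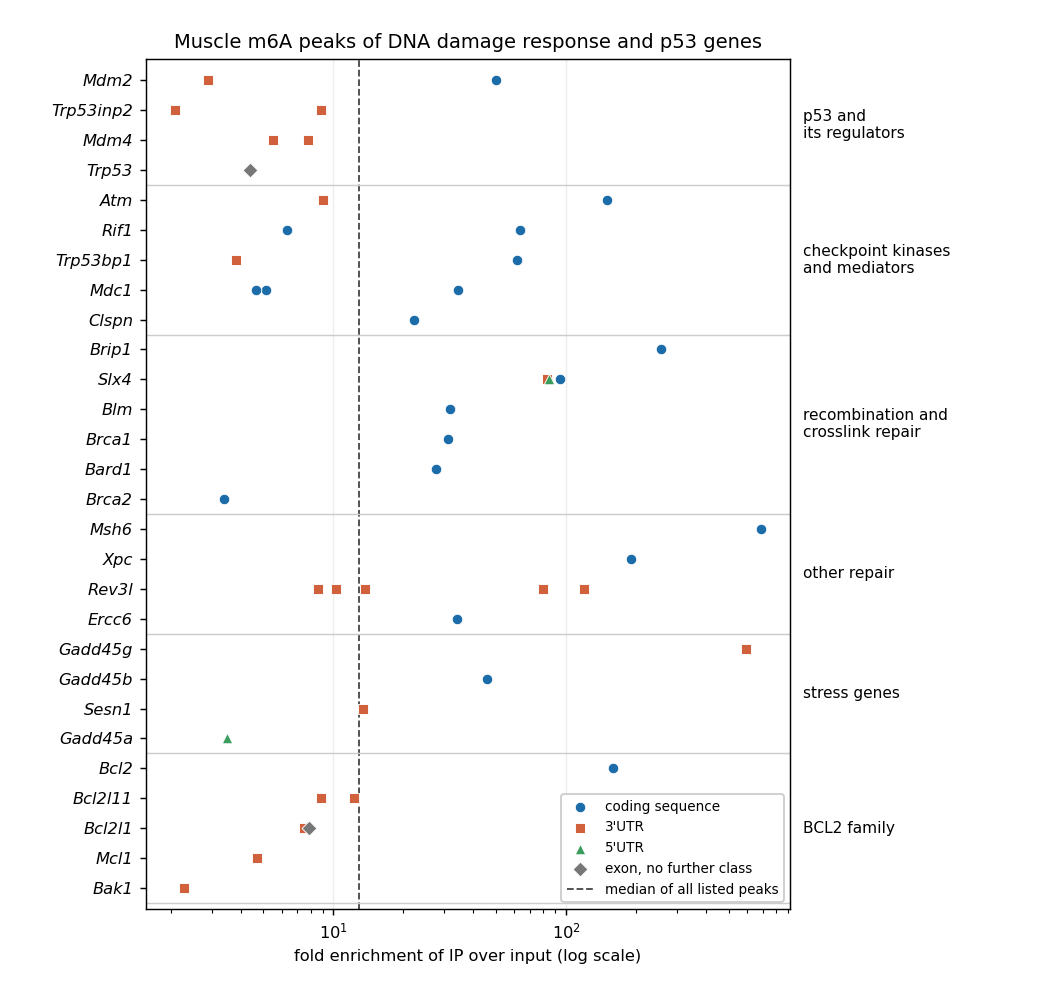
Fold enrichment of IP over input (log axis) of each of the 44 muscle peaks, 1 row per gene, with the gene groups at the right. Symbols give the annotated region, and the dashed line is the median of all listed peaks (12.9). The CDS peaks (circles) lie mostly to the right of the line and the 3′UTR peaks (squares) mostly to its left.

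Of the checkpoint kinases, only Atm was listed in muscle. Its CDS peak on chromosome 9, between 53439479 and 53440089, was enriched 150-fold (rank 583 among genes), with 2 GGAC sites listed. It runs over 2 exon blocks on the minus strand, and the positions of these sites are uncertain. This peak lies near the 3′ end of a gene that spans 99707 bp, and a weaker 3′UTR peak beside it had a fold enrichment of 9. Atr, Chek1 and Chek2, which encode the other kinases, were in neither table. Atrip, the partner that brings ATR to single-stranded DNA, was listed in C2C12 alone, with 1 peak of 218 bp.

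Of the genes for proteins that gather at damaged sites and pass the signal on, 4 were listed in muscle. With Atm this made 5 of the 10 checkpoint genes (50%), against 16.9% of protein-coding genes. Rif1, which limits the trimming of broken ends, had CDS peaks at 63.4 and 6.34, and the stronger one covers 1018 bp. Trp53bp1 (53BP1), which acts before RIF1 in the same choice of repair route, had a CDS peak of 1229 bp, enriched 61.5-fold, in which 8 GGAC sites are listed. Its 3′UTR peak at 3.8 overlaps on the opposite strand a peak listed for Tubgcp4, and the table gives both the same fold enrichment, so the gene to which this weak peak belongs is uncertain. Mdc1, the scaffold that binds phosphorylated histone H2AX, had 3 CDS peaks, at 34.4, 5.13 and 4.65. Clspn, the adaptor through which ATR activates CHK1, had 1 CDS peak at 22.2 with 4 GGAC sites. All 4 genes thus carried their strongest peak in the CDS and above the median of all genes. Over all listed genes, 32.3% have their strongest peak in the CDS and 50.1% reach that median. Topbp1, the activator of ATR, was in neither table.

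In homologous recombination and crosslink repair, 6 of 12 genes (50%) were listed in muscle, against 16.9% of protein-coding genes. Of these, 4 were also in C2C12 (33.3% of the 12 in both, against 7.31%). Brip1, a helicase that binds BRCA1, had the strongest peak, a CDS peak of 629 bp at 255 (rank 314 among genes). It lies on chromosome 11 between 86061281 and 86061909 and holds a single GGAC site. Slx4, the scaffold of several nucleases that cut crosslinks and joined DNA, had peaks in all 3 regions of its transcript. These were a CDS peak at 93.8, a 5′UTR peak at 84.1 and a 3′UTR peak at 82.8. Together they cover 4159 bp and are listed with 28 of the 114 GGAC sites of all 44 peaks. The CDS and 5′UTR peaks run over several blocks on the minus strand. Listed positions in such peaks often fall outside the blocks, so these site numbers are uncertain. Slx4 was the member with the most covered sequence in muscle. Its peaks differed less from each other in fold enrichment than those of Mdc1 and Rev3l, the other members with 3 or more peaks.

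Brca1, central to recombination, had a CDS peak of 660 bp at 31.2 with 3 GGAC sites, and Bard1, its ubiquitin ligase partner, had a CDS peak of 450 bp at 27.7 with none. Blm, the helicase that dissolves joined chromatids, had a CDS peak at 31.7, also without a GGAC site. Brca2, a further gene of recombination, had a CDS peak of 181 bp at only 3.38, rank 3553 among genes and without a site. Fanca, Fancd2, Fanci and Fancm, which encode proteins of the Fanconi anaemia pathway, were in neither table, nor were Palb2, whose product joins BRCA1 to BRCA2, and the helicase gene Wrn.

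The remaining repair genes included the highest value of all. Msh6, which recognises mismatched bases, had 1 CDS peak at 690. It runs on chromosome 17 between 87983548 and 87986236, over 2 exon blocks of 1858 bp together, and holds 8 GGAC sites. By fold enrichment it was rank 68 of 5412 peaks. Xpc, which recognises distorted DNA in nucleotide excision repair, had a CDS peak at 190 with 2 GGAC sites, on chromosome 6 from 91499293 to 91499980. Ercc6 (CSB), which starts repair at stalled RNA polymerase, had a CDS peak at 33.9 without a site. Rev3l, the catalytic subunit of the translesion polymerase zeta, had 5 peaks, more than any other of the 49 genes. These lay in a row on chromosome 10 between 39821449 and 39825041, and the table annotates all of them to the 3′UTR. They end at least 50170 bp before the RefSeq end of the gene, so this annotation is uncertain. In that order their fold enrichment was 79.6, 120, 8.55, 10.3 and 13.6, so the 2 nearest to the start of the gene were the strongest. Polq and Prkdc, which act in the joining of broken ends, Parp1, which marks DNA breaks, and Rad54l2 were in neither table.

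Of the 5 stress genes, 4 were listed in muscle and all 5 in C2C12, against 16.9% and 17.6% of protein-coding genes. The GADD45 proteins are small proteins that p53 and other stress signals induce and that slow the cell cycle and aid repair. Gadd45g had the second highest value of all members, 596, in a peak on chromosome 13 from 51847607 to 51848468 that covers 763 bp of a gene spanning only 1801 bp. With 9 GGAC sites it had 11.8 sites per 1000 bp, the densest of the 44 peaks. The Gadd45b peak, on chromosome 10 from 80931054 to 80932204, covers 870 bp of 2114 and was enriched 45.8-fold, with 5 GGAC sites. Gadd45a, the p53 target among the GADD45 genes, had a much weaker peak of 240 bp in its 5′UTR, at 3.5 with 1 site. The relatives thus spanned a range from 3.5 to 596. The Gadd45a peak runs on chromosome 6 from 67037188 to 67037427, minus strand, and was the only one of the 44 that passed outside the RefSeq span of its gene. The stretch is shown because it reaches 20 bases before the RefSeq start. The 30 bases at its 5′ end (GRCm38.p6, chr6:67037398-67037427, minus strand), read from RefSeq, begin upstream and pass into the transcript, whose first 10 bases are in capitals.

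Gadd45a: gaatcgggccctttgtcctcCAGTGGCCCC

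These bases hold no GGAC, and the listed site of the peak lies further inside the transcript, with its adenosine at 67037259. Sesn1, a p53 target that restrains mTORC1, had a 3′UTR peak of 630 bp at 13.4. Sesn2, its relative, was listed in C2C12 alone, with 1 3′UTR peak of 370 bp.

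All 7 genes of the BCL2 family among the 49 were listed in at least 1 table, as were 27.2% of protein-coding genes. Bcl2l2, Bcl2a1b and Pmaip1, relatives among the further pathway genes, were in neither, and Bid was listed in C2C12 alone (named after their values were seen). Bcl2, the founding inhibitor of cell death, stood apart in muscle with a CDS peak at 159. This peak covers 1079 bp of chromosome 1, between 106712239 and 106713317, and 6 GGAC sites are listed in it. The other listed members were all below the median of all genes, which 50.1% of all listed genes reach. Bcl2l11 (BIM), which triggers death, had 3′UTR peaks at 12.3 and 8.87. Bcl2l1 (BCL-XL), a death inhibitor, had a peak of 3 blocks at 7.88 and a 3′UTR peak at 7.45. Mcl1, a short-lived inhibitor, had a 3′UTR peak at 4.71, and Bak1, a pore-forming effector, one of 120 bp at 2.28. By strongest peak the 3 inhibitors thus ran from 4.71 (Mcl1) to 159 (Bcl2). Bax, the other effector, and Bbc3 (PUMA), the p53 target that activates both, were listed in C2C12 alone, with peaks of 320 bp and 282 bp.

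By place in the transcript, 20 of the 44 peaks lay in the CDS (45.5%, 95% Wilson interval 31.7 to 59.9, for counting error only). Over all muscle peaks the share was 31.9%, just inside the interval. Another 20 lay in the 3′UTR, against 48.0% of all peaks, and 2 each in the 5′UTR and in exons without further class. Of the strongest peaks, 17 of 28 (60.7%, interval 42.4 to 76.4) lay in the CDS, against 32.3% over all genes. Another 8 (28.6%, interval 15.3 to 47.1) lay in the 3′UTR, against 46.5%. The CDS peaks of the 49 genes had a median fold enrichment of 40.1 and the 3′UTR peaks one of 8.85. The same order held over all peaks of the table, where the medians were 26.7 and 9.94. In the 4 genes with both, the CDS peak was the higher, at 150 against 9 in Atm, 50 against 2.88 in Mdm2, 61.5 against 3.8 in Trp53bp1 and 93.8 against 82.8 in Slx4. The median ratio was 16.4, counting the 3′UTR peak of Trp53bp1, whose gene is uncertain as said above. Of the 317 genes of the table with both, 198 (62.5%) had the higher value in the CDS, with a median ratio of 1.82. The highest values annotated to the 3′UTR were those of Gadd45g (596), Rev3l (120) and Slx4 (82.8). Of the 20 peaks so annotated, the 5 of Rev3l and 1 of Bcl2l1 end more than 10000 bp before the RefSeq end of their gene, and the other 14 end within 4968 bp of it. Without these 6 peaks the 3′UTR share was 36.8% of 38 peaks and the 3′UTR median 8.31.

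A GGAC site or more stood in 32 of 44 peaks (72.7%, 95% Wilson interval 58.2 to 83.7), against 70.6% of all peaks, which lies inside the interval. The interval counts peaks of the same gene as independent, so it is no test. Over all bases covered the density was 4.52 sites per 1000 bp, beside 4.63 for all peaks. Of the 114 sites counted, 31 were listed in minus-strand peaks of several blocks, and 13 of these fell outside the blocks. Over all peaks, 2068 of 14306 sites were in such peaks and 909 fell outside, so both densities are uncertain. In the CDS 16 of 20 peaks had one, beside 84.5% of all CDS peaks, and in the 3′UTR 12 of 20, beside 62.0%. The 12 peaks without a site comprised 8 in the 3′UTR and the CDS peaks of Bard1, Blm, Brca2 and Ercc6. Of these CDS peaks, those of Bard1, Blm and Ercc6 had fold enrichments between 27.7 and 33.9. The highest of the 12 was a Rev3l peak at 79.6, whose annotation to the 3′UTR is uncertain. 

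In C2C12 the 23 listed genes had 26 peaks, with a median length of 318.5 bp against 285 bp for all peaks. Coding exons held 18 of them (69.2%, 95% Wilson interval 50.01 to 83.5), against 52.6% of all C2C12 peaks, a share inside the interval. Another 7 lay in the 3′UTR and 1 in an intron. Only Mcl1, Msh6 and Slx4 had 2 peaks (3 of 23, against 25.8% of all listed genes with more than 1). By covered length Mcl1 was the highest, with 898 bp and rank 374 of 3969 genes, followed by Msh6 with 871 bp and rank 397. Bcl2l1 covered 636 bp, Slx4 600 bp, Mdm2 585 bp and Gadd45g 551 bp. The list gives no heights, so length does not show strength. In muscle, by fold enrichment, Mcl1 had rank 3297 of 3975 genes, which is another measure.

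For the 18 genes in both tables, the region of the transcript was the same for at least 1 pair of peaks in 12 (66.7%), against 61.3% of all 1614 shared genes. Distances from the start of the gene were compared next, since the C2C12 positions do not lie in the mm10 spans. Each C2C12 peak was placed with its middle at the listed distance, which is an assumption. So placed, it overlapped a muscle peak in 9 of the 18 genes (50%), against 54.4% of shared genes. The same 9 were counted within 200 bp, against 56.6% of shared genes. These were Mdm2, Clspn, Bard1, Brip1, Slx4, Msh6, Ercc6, Gadd45b and Gadd45g. In Brip1 the C2C12 peak lay 139638 bp from the TSS and the middle of the muscle peak 139620 bp from the RefSeq start. In Clspn the distances were 9333 and 9325.5 bp. In Mdm2 they were 20218 and 20164 bp.

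In the other 9 genes the listed peaks lay apart. The muscle rows are only those that passed the authors' differential test between genotypes. A muscle peak at the C2C12 place may therefore exist and be unlisted. Bcl2 carried its muscle peak in the CDS, with the middle 1512 bp from the start, and its C2C12 peak in the 3′UTR at 171581 bp. Sesn1 was the reverse, with the C2C12 peak in a coding exon at 476 bp and the muscle peak in the 3′UTR at 97086.5 bp. Gadd45a had its muscle peak in the 5′UTR and its C2C12 peak in the 3′UTR at 1823 bp. Mdm4 had a coding exon peak in C2C12 at 33323 bp and only 3′UTR peaks listed in muscle. The gap between the nearest peaks was 433.5 bp in Mdc1, 1009 bp in Bcl2l1, 2536.5 bp in Mcl1, 3833 bp in Trp53bp1 and 10405 bp in Blm. The TSS of the C2C12 list belongs to 1 transcript and the RefSeq start is the outermost of the gene, and how much of a gap comes from that was not tested.

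**Figure D4:**
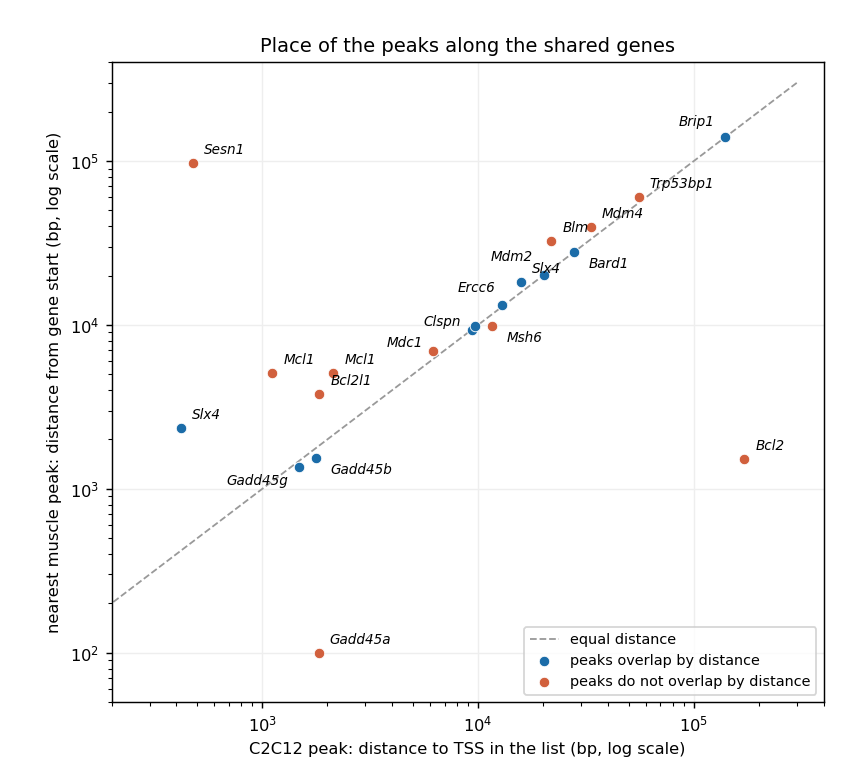
Distance of each C2C12 peak from the TSS (bp, log axis) against the distance of the middle of the nearest muscle peak from the RefSeq gene start (bp, log axis), for the 18 genes in both tables. Blue points overlap by distance and orange ones do not; an unlabelled blue point beside Clspn is the first Msh6 peak. Sesn1, Bcl2 and Gadd45a lie far from the dashed line of equal distance.

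Of 84 further genes of these pathways, 22 (26.2%) were listed in muscle and 23 (27.4%) in C2C12, against 16.9% and 17.6% of protein-coding genes. Both held 11 of them (13.1%), against 7.31%. The highest in muscle were Crebbp (604) and Ep300 (308), which encode acetyltransferases that act on p53. They were followed by Ercc4 (171), a nuclease of excision repair, Lig4 (169), the ligase of end joining, and Rbbp8 (120), which starts the trimming of broken ends. Crebbp and Ep300 also had the most covered sequence in C2C12, with 4 peaks over 1589 bp and 5 peaks over 1573 bp. Next came Phlda3, a p53 target that restrains AKT, with 1039 bp, the death activator Bid with 867 bp, and Rbbp8 with 835 bp. Cdkn1a, the p53 target that arrests the cell cycle, was listed in C2C12 with 210 bp and not in muscle; it is named here after its value was seen.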

How the data were processed

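Samples were grouped from the labels. The submitters' processing notes name TopHat, MACS2 and mm10, with no role or version. The authors deposited a single peak table per experiment. The deposited fold enrichment is a ratio of IP over input per peak. The deposited p-value of a peak was used only to count the 929 peaks listed at 0, of which 8 belong to the genes described. The authors also deposited a log2 fold, a p-value and an FDR score of a differential test between genotypes, which are their own comparison. No value of these was used, except to check that each row passes an FDR of 0.05. 

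The tools were pandas 2.3.3, statsmodels 0.14.6, numpy 2.4.6 and, for plots, matplotlib 3.10.9, under Python 3.11.15. Genes were matched to RefSeq (GRCm38.p6) by current symbol, else by an unambiguous former one. All 49 were found under their current symbols. Each gene was represented by its strongest peak, and lengths count exon blocks only. Starts are given 1-based. Listed GGAC positions were checked against RefSeq start windows, where 67 of 67 sites from peaks of a single block read GGAC. In minus-strand peaks of several blocks, 909 of 2068 listed positions fell outside the exon blocks, so only site numbers were used there. These numbers were not checked against sequence. Helper functions were tested on simulated data. Wilson intervals are at 95% and cover counting error only. Those over peaks count peaks of the same gene as independent. No test between groups was made, since no value per library is given. All members in either table are named, with, of the 84 other genes, the 5 highest in muscle and the 5 with most covered length in C2C12. The members and lists were chosen with earlier results of these data known. No genome sequence was used here, so the sequence of most peaks is not shown.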

Additional observations from a re-analysis of the deposited data

How the results depend on the processing

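Of 23 alternatives to 11 results, 19 stayed within 1.5 times the value (for shares, within its Wilson interval) and 4 moved further, and 4 of the 23 were added after the data were seen. Requiring 2 peaks per gene in C2C12 left 3 of 23 genes. Counting every muscle peak took the median fold enrichment from 32.8 to 13.5. The 3′UTR share of the muscle peaks, 45.5%, became 28.6% with the strongest peak of each gene and 29.95% when weighted by length. A fold enrichment of at least 5 left 23 of the 28 genes, and one at or above the median of all peaks left 19, of which 14 were also in C2C12. Without intron peaks all 23 genes stayed in the C2C12 list. No replicate could be left out, and no paired analysis was possible because neither table gives values per library. For the same reason weak peaks such as those of Bak1 and Brca2 carry no error, and depth is unknown.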

Other observations

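The listed positions of GGAC sites differ between strands in how often they fall outside their peak. Of the sites in peaks of several exon blocks, 0 of 2046 on the plus strand and 909 of 2068 on the minus strand fell outside the blocks of their own peak. For peaks of a single block, on either strand, 0 of 5278 and 0 of 4914 did. Among the genes described, 13 of 31 sites were affected, in Bcl2l1, Mdm2 and Slx4. In RefSeq start windows, 3 of 15 sites of the minus-strand peaks of several blocks read GGAC, against 21 of 24 on the plus strand and 67 of 67 sites from single-block peaks. The cause was not tested.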
